A study of Mus musculus with 17 samples.

Results

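Glial and radial glia marker genes were followed in cultured mouse neural retinal progenitor cells (mNRPCs): Vim, Nes, Gfap, Sox9, Slc1a3, Glul, Rlbp1, Aqp4, Fabp7 and Clu. These 10 genes were taken by their symbols out of the 18836 genes listed in at least 1 of the 17 libraries, with 0 used for a library whose file does not name the gene. The question asked of them here was whether cells grown without bFGF took up a Müller glia or astroglial profile. The cells came from the neural retina of adult C57BL/6 mice and were grown as a line over many passages in a defined medium. According to the paper, that medium was the basic medium with both bFGF and CHIR99021. The basic medium (BM) holds the N2 and B27 supplements. Cells were kept in BM alone, in BM with bFGF (B), basic fibroblast growth factor, a mitogen of neural progenitors, in BM with CHIR99021 (C), an inhibitor of the kinase GSK-3 that raises β-catenin signalling, or in BM with both (BC). Poly-A RNA was sequenced on days 1, 3, 5 and 7 of each medium, and 1 further library was labelled day 0 with no treatment. The paper describes day 0 as its control of cells kept in BM, without giving for how long. Its methods speak of values before treatment. Each medium and day is 1 library from 1 line, so the data hold no replicate cultures. The 16 cultured libraries give 8 with bFGF and 8 without, and 8 pairs of the same day that differ in bFGF only.

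Müller cells are the radial glia of the adult retina. They span its whole depth, take up glutamate through the transporter Slc1a3 (GLAST), turn it into glutamine with glutamine synthetase (Glul), carry retinoids on Rlbp1 (CRALBP) and move water through the channel Aqp4. They share the intermediate filament vimentin (Vim) and the transcription factor Sox9 with progenitors, and in fish and, to a lesser degree, in injured mammalian retina they can re-enter the cell cycle. Nestin (Nes) is the filament of neural stem cells, Gfap is the filament of astrocytes and of stressed Müller cells, Fabp7 is the fatty acid carrier of radial glia, and Clu is a secreted chaperone made by astrocytes and Müller cells.

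Promoter sequences are shown for 4 of the genes to set expressed members beside near-silent ones: the filament genes Vim and Nes were listed in every library, whereas the filament gene Gfap and the transporter gene Slc1a3 were near 0 throughout. Each line gives 300 bases around the RefSeq start site (GRCm38.p6, the same assembly as mm10), 5′ to 3′ along the gene, with each CG dinucleotide in capitals. Vim lies at chr2:13574061-13574360 on the plus strand and Nes at chr3:87970843-87971142 on the plus strand. Gfap lies at chr11:102897151-102897450 on the minus strand and Slc1a3 at chr15:8710758-8711057 on the minus strand.
Vim: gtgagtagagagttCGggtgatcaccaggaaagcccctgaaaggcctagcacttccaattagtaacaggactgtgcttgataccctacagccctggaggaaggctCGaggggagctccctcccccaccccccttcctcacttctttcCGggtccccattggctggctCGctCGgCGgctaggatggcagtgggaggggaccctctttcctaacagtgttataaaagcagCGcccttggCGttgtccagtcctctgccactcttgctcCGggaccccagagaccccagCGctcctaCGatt
Nes: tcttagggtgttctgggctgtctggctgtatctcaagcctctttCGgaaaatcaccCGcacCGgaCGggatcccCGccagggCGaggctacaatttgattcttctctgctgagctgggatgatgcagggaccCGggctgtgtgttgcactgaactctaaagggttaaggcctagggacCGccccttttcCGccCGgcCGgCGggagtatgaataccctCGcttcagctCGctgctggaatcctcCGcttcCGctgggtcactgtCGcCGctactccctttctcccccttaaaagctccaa
Gfap: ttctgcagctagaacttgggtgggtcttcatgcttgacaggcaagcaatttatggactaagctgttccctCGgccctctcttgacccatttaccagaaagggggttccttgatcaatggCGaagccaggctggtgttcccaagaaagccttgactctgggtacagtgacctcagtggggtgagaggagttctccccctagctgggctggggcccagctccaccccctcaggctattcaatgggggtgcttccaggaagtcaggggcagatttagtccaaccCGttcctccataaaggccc
Slc1a3: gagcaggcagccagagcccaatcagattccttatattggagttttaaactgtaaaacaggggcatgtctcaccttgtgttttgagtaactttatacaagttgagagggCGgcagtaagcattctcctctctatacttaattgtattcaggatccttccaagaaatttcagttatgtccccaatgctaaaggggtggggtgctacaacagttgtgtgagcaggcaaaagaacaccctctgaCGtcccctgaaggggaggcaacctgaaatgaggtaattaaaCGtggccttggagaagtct

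The Vim window held 11 CG dinucleotides, the Nes window 18, and the Gfap and Slc1a3 windows 3 each. Over the 32851 promoter windows of the RefSeq table the median was 7, with quartiles of 3 and 20. The table also had a window for Glul with 17 CG dinucleotides, for Rlbp1 with 8 and for Fabp7 with 6. The 3 windows with the most CG dinucleotides thus belonged to the 3 genes of these 7 that were expressed, which is a description of 7 windows. Not among them were Sox9 and Clu, which were also expressed, and Aqp4. The Rlbp1 window lay within the span of its gene rather than at its outer end. The letters TATAAA, searched on both strands, were in 13.6% of all windows. Counted from the start site, the first matching base stood at position -32 in Vim, -161 in Slc1a3 and -78 in Rlbp1. The letters TTCNNNGAA, which STAT factors bind, were in 8.3% of all windows and had 1 match in Gfap and 1 in Slc1a3. The letters TGANTCA, which AP-1 binds, were in 7.81% of all windows and in none of the 7.

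Levels are given as FPKM, the fragment counts that the authors scaled by transcript length and library size and deposited. Vim was by far the most abundant of the 10 genes. Its level ran from 1229 to 4282 FPKM with a median of 2129, and it ranked between the 4th and the 23rd most abundant gene of a library. Sox9 had a median of 21.5 FPKM (9.55 to 44.2), Clu 21.1 (3.22 to 65.8), Glul 16.9 (12.4 to 32.6) and Nes 9.51 (5.73 to 20.9). The ranges of these 4 overlapped, so their order is not separated from the spread between libraries. Aqp4 followed with a median of 0.05 FPKM and a highest value of 1.53. Gfap, Rlbp1, Slc1a3 and Fabp7 never exceeded 0.13 FPKM or 6 counts in a library. Only Vim, Nes, Sox9, Glul and Clu passed the filter of a mean of 1 FPKM over the 16 cultured libraries that was used for testing, so 5 of the 10 genes were tested there.

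**Figure D1:**
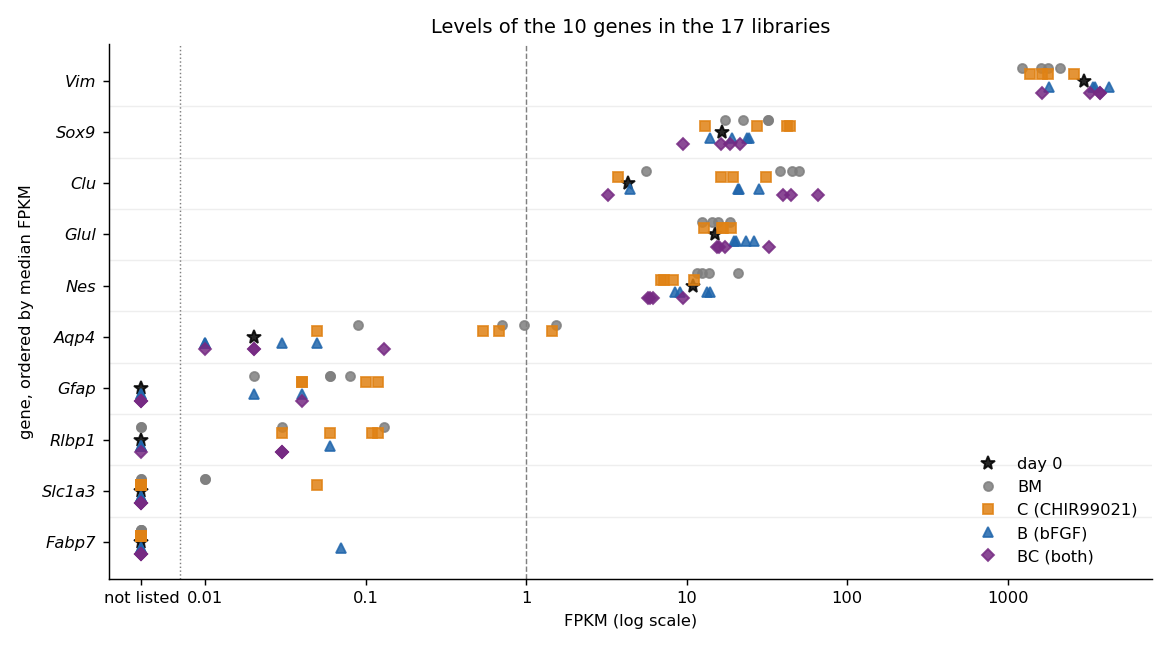
FPKM (log scale, with genes not listed in a library at the left) of each of the 10 genes, 1 point per library, coloured by medium, with the dashed line at 1 FPKM. Vim sits at 1229 FPKM or above in every library, Sox9, Clu, Glul and Nes between 3.22 and 65.8, and Gfap, Rlbp1, Slc1a3 and Fabp7 at or below 0.13.

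The depth was even, at 17571973 to 19428744 expected counts per library and 14820 to 15882 genes listed. Of 15 retinal progenitor genes, Pax6, Six3, Sox2, Hes1 and Ccnd1 were well expressed, but 6 had no library above 1 FPKM, among them the retinal progenitor factors Rax and Six6. Of 25 retinal neuron genes, 20 had no library above 1 FPKM. In the RNA of these libraries the labelled cell type was thus carried by part of its markers only. The paper reports RAX and GFAP in the cells by RT-PCR, and GFAP and RCVRN protein by immunofluorescence. In bulk RNA, fewer cells of a type and less RNA per cell cannot be told apart. The median gene was 0.25 lower with bFGF on the log2(FPKM + 1) scale (range over the 8 pairs 0.03 to 0.50 lower). The fits to counts set the median gene near 0, so their fold changes are larger on the bFGF side than the ratio of the FPKM values printed beside them. For differences over days 1 to 7, p-values measure departures from the additive effects of bFGF, CHIR99021 and day in these libraries. P-values by day, of the interaction with day and of the day 1 to day 7 change use bFGF within each day. That fit has a smaller spread, a coefficient of variation of 10% against 24.7% for the additive fit. The interaction of bFGF with CHIR99021 has its own fit (25.4%). No p-value measures the spread between cultures.

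Vim RNA was higher with bFGF from day 3 on. In BM it was 1778, 2129, 1616 and 1229 FPKM on days 1, 3, 5 and 7, and C followed closely with 1785, 2601, 1642 and 1380 FPKM. In B it was 1815, 3502, 4282 and 3399 FPKM, and BC had 1640, 3268, 3747 and 3782 FPKM. The media with and without bFGF were level on day 1 and did not overlap on days 3 to 7, where the lowest library with bFGF stood at 3268 FPKM and the highest without at 2601. Day 0, at 2991 FPKM, lay between them. Here and for the genes below, how many of all genes also did not overlap was not counted. Of all genes tested, 50.4%, 75.8% and 78.4% passed an adjusted p of 0.05 with bFGF on days 3, 5 and 7. Over days 1 to 7 the fitted log2 fold change of Vim with bFGF was 1.11 ± 0.26 (SE, edgeR quasi-likelihood test, adjusted p = 0.00266), a 2.15-fold rise. By day it was 0.04 ± 0.13 on day 1, 0.62 ± 0.13 on day 3, 1.75 ± 0.13 on day 5 and 2.01 ± 0.14 on day 7, the last with an adjusted p of 5.90e-08. Vim (gene ID 22352) spans chr2:13574311-13582826 in mm10.

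Nes had low levels that varied between media and days. In BM it was 11.7, 12.5, 13.8 and 20.9 FPKM on days 1, 3, 5 and 7. In C it was 7.18, 6.94, 8.20 and 11.2 FPKM. In B it was 13.4, 14.0, 9.08 and 8.50 FPKM, and in BC 9.51, 6.20, 5.73 and 5.95 FPKM. The highest level was thus reached in BM on day 7, and the lowest 3 levels were all in BC. Day 0 stood at 11.0 FPKM. Over days 1 to 7 bFGF made no difference past the threshold, at -0.04 ± 0.12 (SE, adjusted p = 0.785). By day the difference ran from 0.39 ± 0.14 on day 1, with an adjusted p of 0.106, to -0.56 ± 0.14 on day 7, with an adjusted p of 0.00339. Without the B library of day 7 the latter was -0.38 with an adjusted p of 0.063. Nes (gene ID 18008) spans chr3:87971093-87980451.

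Sox9, which Müller glia, astrocytes and progenitors share, went up over time without bFGF. In BM it was 17.3, 22.3, 32.3 and 31.9 FPKM on days 1, 3, 5 and 7, and in C it was 13.1, 27.6, 44.2 and 41.9 FPKM. In B it was 24.4, 23.9, 14.0 and 19.1 FPKM, and in BC 21.5, 18.6, 9.55 and 16.3 FPKM. With bFGF the levels on day 1 were above those without, and on days 5 and 7 they were below them with no overlap. Day 0 stood at 16.6 FPKM. The fitted difference with bFGF was 0.68 ± 0.23 on day 1 (SE, adjusted p = 0.0808), -0.14 ± 0.23 on day 3, -1.26 ± 0.23 on day 5 (adjusted p = 0.00033) and -0.52 ± 0.23 on day 7 (adjusted p = 0.0515). The day 7 value ran from -0.79 without BM of day 7 (adjusted p = 0.0178) to -0.26 without C of day 7 (adjusted p = 0.386), and it passed the threshold in 11 of the 16 fits that left out a library, all but those without B, BC or C of day 7 and B or BC of day 1. It also passed when FPKM were tested in place of counts (limma on log2(FPKM + 1), -1.01, adjusted p = 0.000849). The day 1 value passed it with DESeq2 (0.65, adjusted p = 0.0432). Over days 1 to 7 the difference was -0.31 ± 0.23, with an adjusted p of 0.245, and it ran from -0.45 without C of day 1 to -0.15 without BC of day 5. In days 3 to 7 alone it was -0.63 (adjusted p = 0.0157). Sox9 (gene ID 20682) spans chr11:112782210-112787757.

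Glul was moderately higher with bFGF. In BM it was 14.4, 18.7, 15.6 and 12.4 FPKM on days 1, 3, 5 and 7, and in C it was 12.9, 18.8, 16.5 and 16.9 FPKM. In B it was 19.8, 26.2, 20.2 and 23.3 FPKM, and in BC 17.3, 32.6, 15.5 and 15.8 FPKM. B was above BM on all 4 days, whereas BC was above C on days 1 and 3 and slightly below it on days 5 and 7. Day 0 stood at 15.0 FPKM, within the range of the media without bFGF. Over days 1 to 7 the fitted difference was 0.70 ± 0.11 (SE, adjusted p = 0.000288), a 1.62-fold rise, and it passed the threshold with each library left out in turn. By day it was 0.52 ± 0.19 on day 1, below the threshold, 0.75 ± 0.19 on day 3, 0.59 ± 0.19 on day 5 and 0.95 ± 0.19 on day 7, with adjusted p of 0.103, 0.00573, 0.0132 and 0.000615. On the FPKM scale the differences of day 5 (0.13, adjusted p = 0.54) and day 7 (0.38, adjusted p = 0.0755) missed the threshold (limma on log2(FPKM + 1)). The day 3 value fell to 0.54 (adjusted p = 0.0564) without the BC library of that day. The day 5 value was 0.38 (adjusted p = 0.155) without B and 0.50 (adjusted p = 0.0984) without BM. Glul (gene ID 14645) spans chr1:153899929-153909723. Its exons share 116 bases with Teddm2 on the other strand, which never exceeded 0.03 FPKM.

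Clu rose steeply with time in every medium. It was 4.30 FPKM on day 0 and 3.22 to 5.61 in the 4 libraries of day 1. In BM it then stood at 49.9, 38.4 and 45.1 FPKM on days 3, 5 and 7, and in C at 16.3, 19.6 and 31.1 FPKM. In B it stood at 20.8, 28.1 and 21.1 FPKM and in BC at 40.1, 65.8 and 44.4 FPKM. All 12 libraries of days 3 to 7 lay above all of day 0 and day 1. The media with and without bFGF overlapped, and the difference over days 1 to 7 was 0.34 ± 0.33 (SE, adjusted p = 0.364). Clu (gene ID 12759) spans chr14:65968483-65981548.

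**Figure D2:**
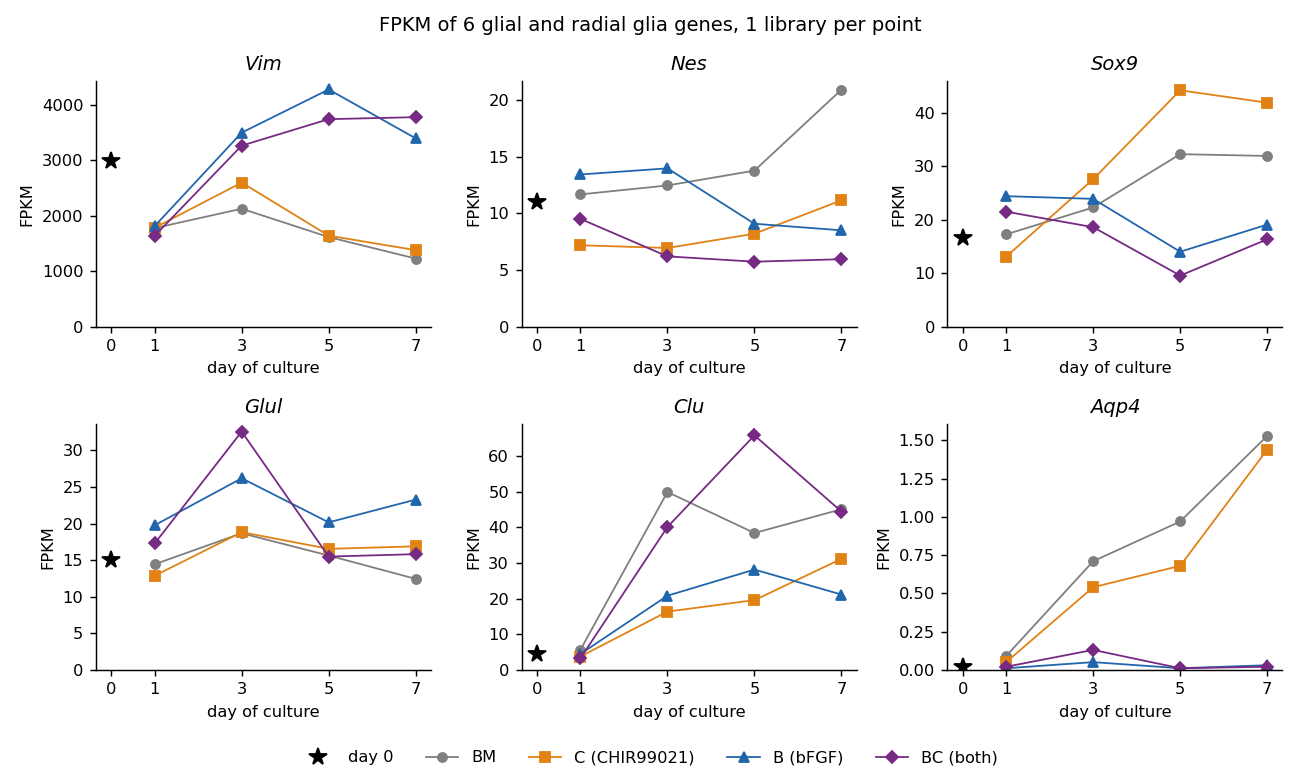
FPKM against day of culture for Vim, Nes, Sox9, Glul, Clu and Aqp4, 1 library per point, lines joining the libraries of a medium and a star for day 0. Vim separates by bFGF from day 3 (3268 FPKM and more with, 2601 and less without), Sox9 crosses over between days 1 and 5, Clu climbs in all 4 media, and Aqp4 climbs in BM and C to 1.53 and 1.44 FPKM.

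Aqp4, the water channel of Müller cell and astrocyte endfeet, stayed under a mean of 1 FPKM but differed between media with and without bFGF by more than any of the 5 tested genes. In BM its expected counts were 9, 66, 93 and 146 on days 1, 3, 5 and 7, which is 0.09, 0.71, 0.97 and 1.53 FPKM. In C they were 5, 50, 65 and 140 counts, up to 1.44 FPKM. In B they were 1, 5, 1 and 3 counts and in BC 2, 12, 1 and 2 counts, with 0.13 FPKM as the highest value. Day 0 had 2 counts. Every library without bFGF on days 3 to 7 lay above every library with it. Over these days the 6 libraries without bFGF held 560 counts and the 6 with it 24, a ratio of 23.0 per unit of depth with an exact 95% interval of 15.3 to 36.2 that covers counting error only. In the fit without a filter on low values, over 18700 genes, the difference with bFGF over days 1 to 7 was -3.90 ± 0.44 (SE, adjusted p = 3.78e-05). By day it was -2.06 ± 0.72 on day 1, with an adjusted p of 0.112, and -2.66 ± 0.37 on day 3, with an adjusted p of 2.24e-05. On days 5 and 7 the adjusted p were 5.99e-08 and 9.56e-09, and the fitted sizes there rest on 1 to 3 counts in each library with bFGF. In BM and C together Aqp4 rose from day 1 to day 7 by 4.25 ± 0.36 (adjusted p = 2.86e-08).

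Gfap was at the edge of detection in these libraries, whereas the paper reports GFAP by RT-PCR and immunofluorescence. Its expected counts in BM were 3, 1, 3 and 4 on days 1, 3, 5 and 7, and in C 2, 2, 6 and 5. In B they were 2, 0, 0 and 1, in BC 0, 0, 2 and 0, and on day 0 Gfap was not listed. All 8 libraries without bFGF had at least 1 count, against 3 of the 8 with it, and the groups overlapped. In all, 26 counts without bFGF stood against 5 with it, a ratio of 5.15 (exact 95% interval 1.95 to 17.2). The fit without a filter gave -1.86 ± 0.65 (SE, adjusted p = 0.029). The call was lost when any 1 of these was left out: B day 5 (-1.62, adjusted p = 0.0628), BC day 1 (-1.64, 0.0534), BC day 7 (-1.61, 0.0658), C day 5 (-1.75, 0.0624) and C day 7 (-1.81, 0.0537). A count of 0 allows 3 counts, here at most 0.0641 FPKM, so even the highest value, 0.12 FPKM in C on day 5, is little above that limit.

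The 3 other low genes did not pass the threshold with bFGF in the fit without a filter. Rlbp1, the retinoid carrier that marks differentiated Müller cells, had 5 counts in BM on day 7, 5 and 4 in C on days 5 and 7, and at most 2 in any library with bFGF. In all it had 18 counts without bFGF and 5 with it, a ratio of 3.57 (exact 95% interval 1.28 to 12.3, counting error only), and the fit gave -1.24 ± 0.76 (SE, adjusted p = 0.206). Slc1a3, the glutamate transporter, was listed in 3 libraries, with 1 count in BM on days 1 and 5 and 4 counts in C on day 5. It was not listed in any of the 8 libraries with bFGF, where a count of 0 allows at most 0.0405 FPKM (adjusted p = 0.171). Fabp7 had 1 count in a single library, B on day 7 (adjusted p = 0.442), and a count of 0 allows at most 0.224 FPKM for this short transcript. Of the 3 genes of Müller glutamate, retinoid and glial filament function, Slc1a3, Rlbp1 and Gfap, none reached 0.2 FPKM in any medium on any day.

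**Figure D3:**
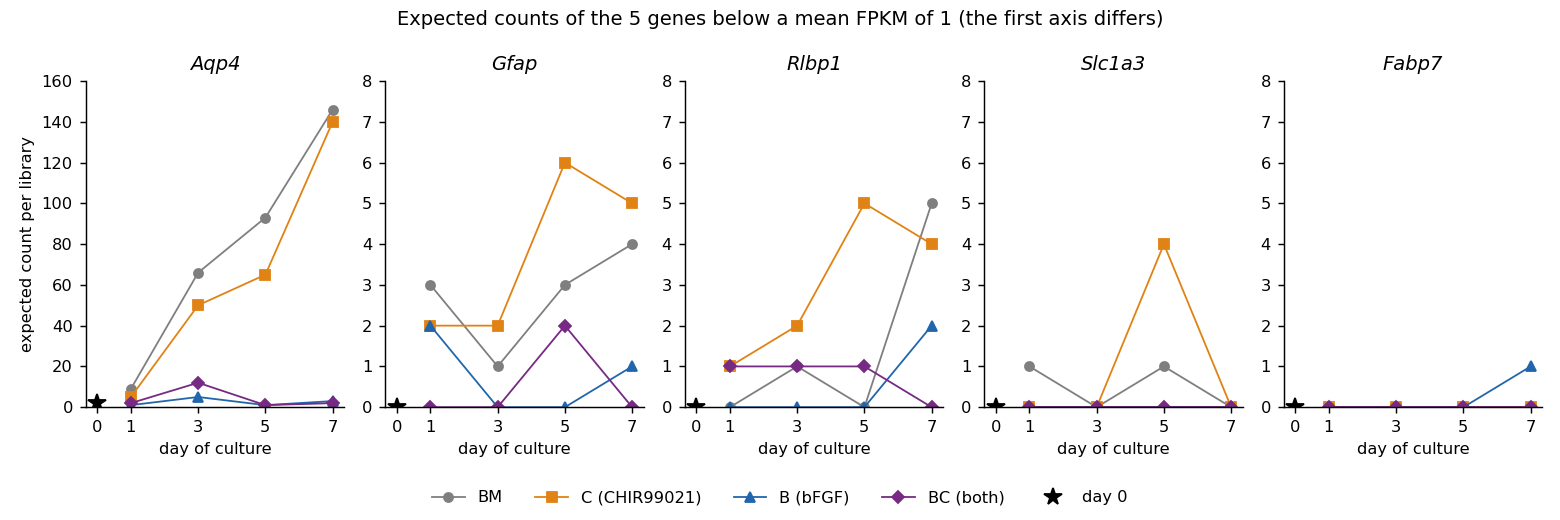
Expected counts per library of the 5 genes below a mean of 1 FPKM, by day and medium, with a star for day 0 and an axis for Aqp4 that differs from the others. Aqp4 climbs to 146 counts in BM and 140 in C and stays at 12 or fewer with bFGF, Gfap and Rlbp1 reach 6 and 5 counts, and points at 0 overlie each other.

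Counted over the 5 tested genes, 2 were called with bFGF over days 1 to 7, Vim and Glul, both higher. Of all 11272 genes tested, 68.4% were called in this comparison, 34.6% higher and 33.9% lower, so the share of the members is no larger than the background. In the fit without a filter 4 of the 10 genes were called, Vim and Glul higher and Aqp4 and Gfap lower, against 46.5% of 18700 genes. On day 1 none of the 5 was called by edgeR, with 10.7% of all genes called. An unadjusted p under 0.05 (edgeR) was reached by 3 of the 5 and by 2979 of the 11272 genes. DESeq2 called 1 of the 5, and its share of all genes is not given here. On day 3, 2 were called (50.4% of all genes), on day 5 Vim, Glul and Sox9 (75.8%), and on day 7 Vim, Glul and Nes (78.4%). The fit without a filter called 5 of the 10 on day 7 (53% of all genes), adding Sox9 and Aqp4. The median log2 fold change of the 5 genes on day 7 was 0.35, against -0.01 over all genes.

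**Figure D4:**
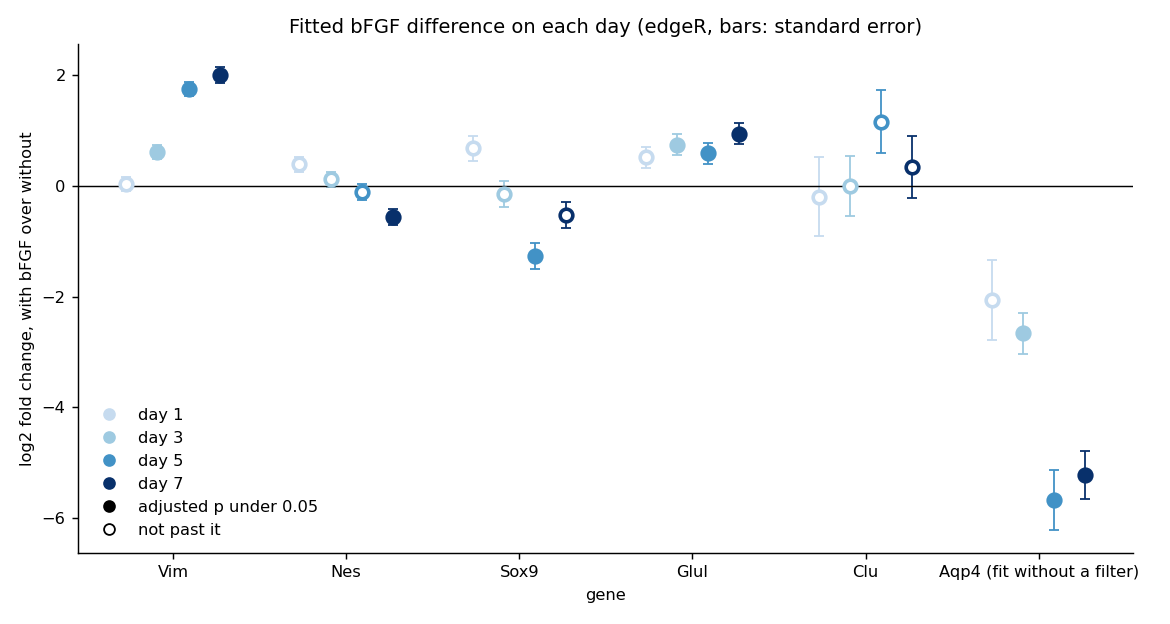
Fitted log2 fold change with bFGF over without on each day (points, bars for the standard error, filled where the adjusted p is under 0.05) for the 5 tested genes and, from the fit without a filter, Aqp4. Vim goes from 0.04 to 2.01, Nes from 0.39 to -0.56, Sox9 from 0.68 to -1.26 on day 5, Glul stays between 0.52 and 0.95, and Aqp4 lies below 0 on each day.

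Whether the bFGF difference changed with the day was tested as an interaction. It passed the threshold for Vim (adjusted p = 6.03e-06), Sox9 (adjusted p = 0.00139) and Nes (adjusted p = 0.0066), that is for 3 of 5, against 76.3% of all genes. It did not for Glul (adjusted p = 0.457) or Clu (adjusted p = 0.448). In the fit without a filter Aqp4 passed it too, with an adjusted p of 0.00458 against 48.6% of genes called. For Vim the difference on day 7 was 1.97 ± 0.19 larger than on day 1, and for Nes and Sox9 it moved by -0.95 ± 0.20 and -1.20 ± 0.32 on the log2 scale.

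The change from day 1 to day 7 was then taken within each arm, BM and C without bFGF, and B and BC with it. Both arms share the day 1 to day 7 fit, and their changes are set side by side. Without bFGF 4 of the 5 genes changed, Clu by 3.00 ± 0.64 (adjusted p = 0.00149), Sox9 by 1.27 ± 0.23 (adjusted p = 0.000457), Nes by 0.72 ± 0.14 (adjusted p = 0.000843) and Vim by -0.47 ± 0.13 (adjusted p = 0.00725). The background was 63.8% of genes called, 32.3% higher. Without the BM library of day 7 the Vim value was -0.43, with an adjusted p of 0.0504. In the fit without a filter, with 41.6% of genes called, Aqp4 was added to these. With bFGF 3 of the 5 rose, Clu by 3.53 ± 0.67 (adjusted p = 0.000389), Vim by 1.50 ± 0.13 (adjusted p = 7.42e-07) and Glul by 0.51 ± 0.19 (adjusted p = 0.027), against 75.3% of genes called, 35.8% higher. The Glul change was 0.24 (adjusted p = 0.33) without B of day 7, 0.57 (adjusted p = 0.0622) without B of day 1, 0.41 (adjusted p = 0.162) without BC of day 1 and 0.05 (adjusted p = 0.807) on the FPKM scale. Sox9 and Nes did not pass the threshold in the arm with bFGF, at 0.06 ± 0.23 and -0.23 ± 0.14.

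Of the 10 genes, 1 was called with CHIR99021. Nes was lower with it in 8 of 8 pairs of libraries that differ in CHIR99021 only, by 0.68 ± 0.20 on the log2(FPKM + 1) scale (SD over the pairs). In the media without bFGF the groups did not overlap, with 6.94 to 11.2 FPKM in C and 11.7 to 20.9 FPKM in BM. In the media with bFGF they overlapped, with 5.73 to 9.51 FPKM in BC and 8.5 to 13.97 FPKM in B. The fitted difference was -0.76 ± 0.12 (SE, adjusted p = 0.0324), a 1.69-fold fall. In the additive fit 38 genes passed the threshold with CHIR99021, 0.337% of those tested, of which 32 were lower. That fit leaves the change of the bFGF difference with day in its spread. The count is thus no measure of how many genes CHIR99021 changed. CHIR99021 was not tested in the fit of bFGF within each day, which has the smaller spread. The call on Nes was lost in 11 of the 16 fits that left out a library (highest adjusted p 0.0834, without BM of day 3, with values over the 16 fits from -0.83 to -0.68) and when FPKM were tested (limma, -0.68, adjusted p = 0.0985). The libraries whose removal ended it were B of days 3 and 5, BC of days 3 and 7, BM of days 3, 5 and 7, and C of days 1, 3, 5 and 7. Vim (0.04 ± 0.25), Sox9 (-0.01 ± 0.22), Glul (-0.06 ± 0.11) and Clu (-0.07 ± 0.33) did not pass the threshold.

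For Clu the 2 factors gave a crossed pattern. C was below BM on each of the 4 days, whereas BC was below B on day 1 and above it on days 3, 5 and 7. The interaction of bFGF with CHIR99021 was 1.74 ± 0.44 for Clu, with an unadjusted p of 0.00181 and an adjusted p of 1 (edgeR). Over all genes 0.00887% passed this test, a single gene. The fit for it also leaves the change of the bFGF difference with day in its spread. None of the 5 genes did by edgeR, DESeq2 or limma, and Clu was the 1 with an unadjusted p under 0.05.

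Against the single day 0 library no test is possible, and a change of at least 2 times on the log2(FPKM + 1) scale is given as a description. On day 7 Clu was past it in all 4 media, at 10.5 times its day 0 level in BM and 10.3 times in BC, and at 7.24 times in C and 4.91 times in B. Vim was past it in BM and C, at 0.411 and 0.461 of its day 0 level, and Sox9 in C at 2.52 times. That makes 2 of the 5 genes in BM (34.1% of all genes), 3 in C (35.4%), 1 in B (35.1%) and 1 in BC (37.8%). Vim on day 1 was below the day 0 library in every medium, at between 0.548 and 0.607 of its level. The levels of Nes and Glul on day 7 were within 2 times of day 0 in all 4 media.

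The other genes of these cell types were read from lists of marker genes. Of 24 Müller glia genes beside the members, 14 were tested and 8 had no library above 1 FPKM. With bFGF over days 1 to 7, 2 of the 14 were higher and 10 lower, against 34.6% and 33.9% of all genes, with a median of -0.64 against 0.00. Sox2 and Hes1, both among the 10, are also retinal progenitor genes and in the radial glia list. Of the retinal progenitor genes 8 were tested, of which 3 were higher and 5 lower with bFGF (median -0.49). The lower levels were thus not particular to the Müller glia list. Mlc1, a membrane protein of glial endfeet, had the largest fall (-5.39 ± 0.68, adjusted p = 9.49e-05) and stood on day 7 at 28.8 FPKM in BM and 46.9 in C, was not listed in B and reached 0.47 in BC. The filter took the mean over both arms, so a gene near 0 with bFGF could pass it through the libraries without bFGF. Such genes are part of the counts called lower here and in the lists below. Ptgds, which makes prostaglandin D2, followed at -3.12 ± 0.25 (adjusted p = 6.81e-06), with 60.7 (BM) and 96.2 FPKM (C) on day 7 when bFGF was absent and 4.32 (B) and 4.66 FPKM (BC) when it was present. The antioxidant enzyme Prdx6 (0.74 ± 0.11) and the tetraspanin Cd9 (0.55 ± 0.14) were higher with bFGF. Itm2b (-0.12 ± 0.12) and Lxn (0.07 ± 0.16), among the 3 most abundant of the list with Cp, did not pass the threshold, although Itm2b did on the FPKM scale (limma on log2(FPKM + 1), -0.41, adjusted p = 0.00124). Cp, the copper-carrying ferroxidase ceruloplasmin, was lower with bFGF (-0.60 ± 0.20, adjusted p = 0.017). From day 1 to day 7, 12 of the 14 rose without bFGF (median 2.56), against 32.3% of all genes, and 12 rose with it (median 1.90), against 35.8%. The potassium channel Kcnj10 and the carbonic anhydrases Car2 and Car14, all of mature Müller cells, never exceeded 0.31 FPKM.

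Of 20 astrocyte genes, 12 had no library above 1 FPKM and 7 were tested. With bFGF 2 were higher and 3 lower, with a median of -0.21, and 68.4% of all genes were called in either direction. Ndrg2 (1.63 ± 0.22) and the secreted phagocytosis bridge Mfge8 (1.60 ± 0.28) were higher, and on day 7 Mfge8 reached 594 FPKM in B and 703 in BC, while BM had 162 and C 177. The receptor Fgfr3 (-1.79 ± 0.53), the BMP target Id3 (-0.90 ± 0.23) and the glycolytic enzyme Aldoc (-0.48 ± 0.13) were lower. The defining astrocyte genes Aldh1l1, S100b and Pax2 never exceeded 0.23 FPKM.

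Of 19 radial glia and neural stem cell genes, 13 were tested, of which 4 were higher and 6 lower with bFGF (median -0.32), against 34.6% and 33.9% of all genes. The transcription factor Pax6 (-1.94 ± 0.27, adjusted p = 0.000148) and the receptor Notch1 (-0.92 ± 0.13) were lower. On day 7 Pax6 stood at 165 FPKM in BM and 152 in C, while B had 10.7 and BC 16.5. The growth factor Ptn (1.93 ± 0.48) and the proliferation marker Mki67 (1.51 ± 0.28) were higher, and so were the fatty acid carrier Fabp5 (0.65 ± 0.25, adjusted p = 0.0353) and the matrix protein Tnc (0.46 ± 0.11, adjusted p = 0.0036). The calls on Fabp5 and Tnc were lost on the FPKM scale (limma, 0.36 with an adjusted p of 0.12 and 0.17 with an adjusted p of 0.25), and that on Fabp5 also in 10 of 16 fits that left out a library. Pdpn, the most abundant of the list, did not pass the threshold (0.19 ± 0.17).

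Of 20 reactive gliosis genes, 17 were tested, of which 4 were higher and 12 lower with bFGF (median -0.75), against 34.6% and 33.9% of all genes. S1pr3, a sphingosine phosphate receptor, was lower by the most (-5.63 ± 0.85), before the metalloreductase Steap4 (-4.22 ± 0.72). On day 7 S1pr3 was at 94.6 FPKM in BM and 153 in C, while B had 0.17 and BC 0.18. Steap4 was then at 6.53 (BM) and 13.9 FPKM (C) against 0.02 (B) and 0.09 FPKM (BC). The limit of the filter given with Mlc1 applies to both. The chemokine Ccl2 was lower (-0.64 ± 0.22, adjusted p = 0.0191), a call lost without BC of day 5 (-0.57, adjusted p = 0.0504). The galectin Lgals3 (1.87 ± 0.33) and the protease inhibitor Timp1 (1.42 ± 0.14) were higher. Gfap, the usual marker of gliosis, remained at 6 counts or fewer in the libraries where these genes were highest.

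**Figure D5:**
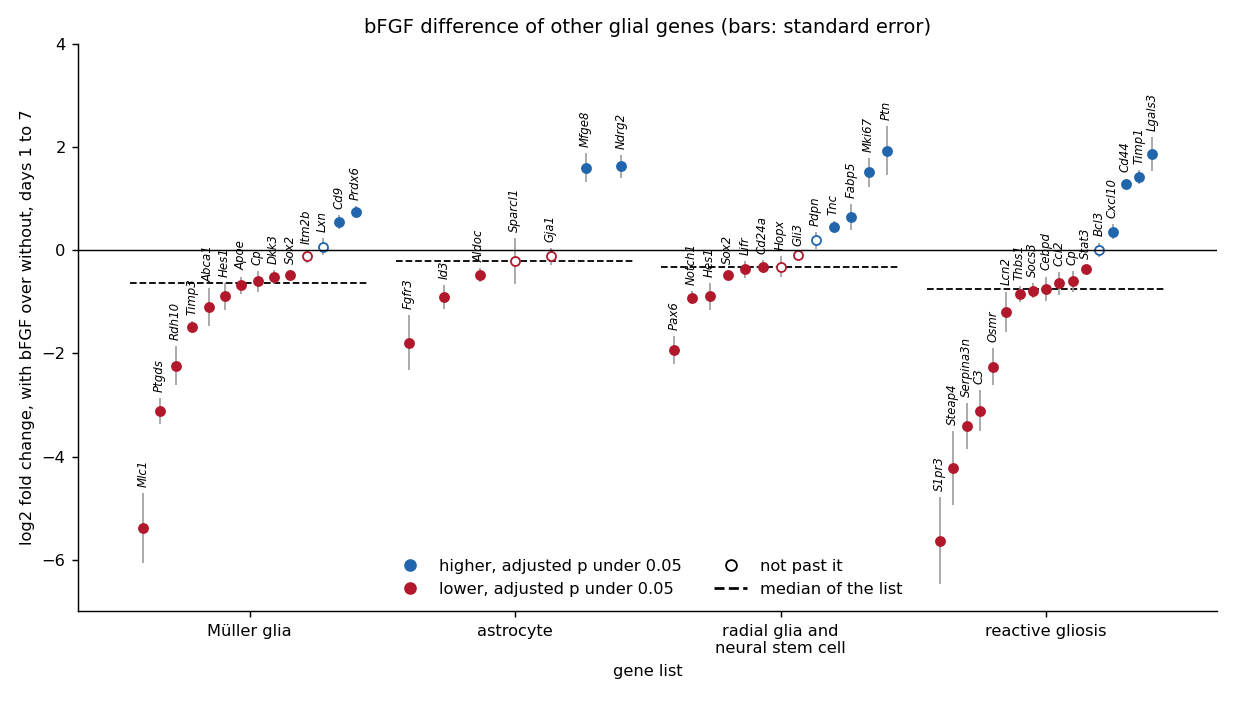
Log2 fold change with bFGF over without, days 1 to 7, for each tested gene of 4 glial lists (points, bars for the standard error, filled where the adjusted p is under 0.05, dashed line for the median of the list). The medians are -0.64 for Müller glia, -0.21 for astrocyte, -0.32 for radial glia and neural stem cell and -0.75 for reactive gliosis genes, and each list holds genes on both sides of 0.

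Markers of other cells moved with bFGF as well. Of 10 pericyte and fibroblast genes, 5 were tested and all 5 were lower with bFGF, with a summed level of 310 to 884 FPKM in the 8 libraries without it, 70.3 to 178 with it and 200 on day 0. Among them the actin Acta2 reached 365 FPKM in BM on day 7, whereas Rgs5, Des and Lum of this list stayed at or below 0.21. Of 10 microglia and macrophage genes, Cd68 was the 1 tested and rose with bFGF, to 79.8 FPKM in B on day 7, Cx3cr1 reached 2.25 in BC on day 7, and Aif1, P2ry12, Ptprc and Itgam never exceeded 0.16. The summed level of this list was 1.74 to 4.81 FPKM without bFGF and 2.20 to 81.7 with it. Of 10 oligodendrocyte lineage genes, Cnp (-0.27 ± 0.11) and Pdgfra (-0.42 ± 0.15) were tested and both were lower, while Olig1, Olig2 and Mag were not listed in any library. Of 10 endothelial genes, Flt1 (0.91 ± 0.15) and Egfl7 (0.58 ± 0.19) were tested and both were higher, while Kdr reached 1.27 FPKM and Cdh5 and Tie1 never exceeded 0.01. None of 10 pigment epithelium genes was tested, and Rpe65, Tyrp1 and Lrat never exceeded 0.09 FPKM. The part of the pericyte, fibroblast and macrophage genes in the Vim, Sox9 and Aqp4 differences was not tested.

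Genes with the most similar course over the 17 libraries were sought for the 5 tested genes by Pearson's r of log2(FPKM + 1), as a description over libraries that share days and media. For Vim they were Sugt1 (0.930), Eif4b (0.928) and Gpi1 (0.923). For Nes they were Rap1gap2 (0.867), Ddah1 (0.858) and P2ry2 (0.857), and for Sox9 the potassium channel genes Kcnab1 (0.937) and Kcnj12 (0.891) with Micall1 (0.901). For Glul they were Fyb (0.873), Pgm2 (0.832) and Entpd1 (0.813), and for Clu Ctla2a (0.949), Cadm4 (0.939) and Tmem59 (0.932). No member was among the 3 most similar genes of another. Between the members, r was -0.65 for Vim with Sox9, -0.55 for Vim with Nes, 0.52 for Vim with Glul and 0.49 for Nes with Sox9, over the same 17 libraries.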

How the data were processed

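The 17 RNA-seq libraries, 1 for each medium and day and 1 for day 0, were grouped by their labels. The authors sequenced poly-A RNA on the BGISEQ-500 and mapped it with Bowtie 2. The submitters' processing notes name RSEM and mm10, whereas the methods name eXpress. Whether reads were counted by strand is not given in the sources used here. Each file that the authors deposited holds expected counts, estimates that need not be whole, and FPKM values from 0.01 up. Low counts are imprecise, and intervals and floors (3 counts) cover counting error only.

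The rounded expected counts of 11272 genes, those whose mean FPKM over the cultured libraries was 1 or more, were fitted in edgeR (version 4.0.16, R 4.3.3) by quasi-likelihood with TMM factors. The adjustment of p-values was that of Benjamini and Hochberg, with a threshold of 0.05. The models were bFGF, CHIR99021 and day as additive terms (10 residual degrees of freedom), bFGF within each day with CHIR99021 (7), and the interaction of both factors (9). The fits were tested on simulated data. Alternatives were size factors of DESeq2, DESeq2 1.42.0, no filter, a minimum of 5 FPKM, limma 3.58.1 on log2(FPKM + 1) or log2(FPKM + 0.1), days 3 to 7 only, and each library left out. Leave-one-out and DESeq2 fits without a filter were added after Aqp4 and Gfap were seen to fall below it. Python 3.11.15 with pandas 2.3.3 and scipy 1.17.1 handled tables and intervals, and matplotlib 3.10.9 drew the plots.

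The members and lists were chosen with earlier results of these data known. Named genes were all members and, from each glial list, the 3 with the highest mean FPKM and the 2 largest rises and falls past the threshold with bFGF. Other genes, of the lists for other cell types and those named as near 0, were chosen after their values were seen. Promoters came from RefSeq (GRCm38.p6), with windows used for 7 of the 10 members.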

Additional observations from a re-analysis of the deposited data

Results flagged for a closer look

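The bFGF difference was not the same on each day for 4 genes. The interaction of bFGF with day gave an adjusted p of 6.03e-06 for Vim, 0.00139 for Sox9 and 0.0066 for Nes (edgeR), and 0.00458 for Aqp4 in the fit without a filter. The fitted Vim difference went from level on day 1 to 4.02-fold on day 7. In FPKM the Vim ratio of day 7 was 2.77 for B over BM and 2.74 for BC over C. Nes and Sox9 went from higher on day 1, short of the threshold, to lower. The interaction passed the threshold for 76.3% of all genes. Media were sampled on separate days with 1 library each, so a day and what is particular to its libraries cannot be told apart.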

How the results depend on the processing

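No paired analysis was possible because the labels give no replicate numbers to use as a block. Libraries were matched by day, which is a term of the fits. The main limits are the lack of replicate cultures and the low counts of 5 genes. Over the members, 252 values under settings other than leave-one-out kept their direction and side of the threshold, 9 lost a call, 12 gained one and 13 turned in sign. For other named genes these numbers were 154, 5, 2 and 5. With a library left out they were 731, 24, 15 and 46 for members, and 370, 11, 0 and 3 for other named genes. The values that turned in sign did not pass the threshold in the fit reported or after turning.

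Members called with bFGF went from 2 to 4 over days 1 to 7 and from 3 to 5 on days 5 and 7 without a filter, which tests 10 members in place of 5, and from 0 to 1 on day 1 with DESeq2. Without a filter 8688, 9571 and 9911 of all 18700 genes were called over days 1 to 7, on day 5 and on day 7. The day 5 call on Clu lay at the threshold (edgeR, adjusted p = 0.05 after rounding). With CHIR99021 the members called went from 1 to 0 with limma at either pseudocount. Genes called with CHIR99021 were 38, against 281 with DESeq2, 22 without a filter and 24 in days 3 to 7. For the interaction of bFGF with CHIR99021 the single gene became 5 with DESeq2 and 0 with limma. The cause was not tested.

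Small differences turned in sign. With limma at a pseudocount of 1 or 0.1, the bFGF difference became -0.21 and -0.21 for Lxn, -0.11 and -0.11 for Pdpn, -0.05 and -0.05 for Vim on day 1 and -0.28 and -0.29 for Clu on day 7, and the Sox9 change with bFGF became -0.36 and -0.37. With a minimum of 5 FPKM they were -0.00 for Lxn, -0.00 for Vim on day 1, -0.01 for Clu on day 3 and -0.01 for the Sox9 change with bFGF. Without a filter the changes were -0.02 for Glul without bFGF and -0.02 for Sox9 with it. In days 3 to 7 the CHIR99021 difference was 0.02 for Sox9 and 0.03 for Clu.

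With each library left out, genes called with CHIR99021 ran from 1 to 28 and members from 0 to 1, genes called with bFGF on day 1 from 145 to 1778 and members from 0 to 1, and genes called for the interaction of bFGF with CHIR99021 from 0 to 1. Removing B, BC, BM or C of day 1 gave 359, 145, 201 and 375 genes on day 1. The bFGF difference over days 1 to 7 ran from -0.12 to 0.05 for Nes and from -0.04 to 0.13 for Lxn. On day 1 it ran from -0.09 to 0.11 for Vim and from -0.49 to 0.12 for Clu. On day 3 it ran from -0.15 to 0.35 for Nes, which passed the threshold without BC of day 3 (0.35), from -0.34 to 0.09 for Sox9 and from -0.71 to 1.05 for Clu, and on day 7 from -0.46 to 0.94 for Clu. The CHIR99021 difference ran from -0.08 to 0.16 for Vim, -0.19 to 0.10 for Sox9, -0.12 to 0.02 for Glul and -0.32 to 0.10 for Clu. The interaction of both ran from -0.49 to 0.06 for Vim and from -0.08 to 0.23 for Nes. The change from day 1 to day 7 ran from -0.25 to 0.31 for Glul without bFGF and from -0.03 to 0.12 for Sox9 with it.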
